A study of Mus musculus with 34 samples.

Results

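Translational efficiency (TE), the amount of ribosome footprints on an mRNA relative to the amount of that mRNA, was compared between mouse hippocampus taken 5 min after contextual fear conditioning and control hippocampus. For each sample TE was computed as log2((RPF + 1)/(RNA + 1)), where RPF is the deposited signal of ribosome-protected fragments and RNA that of RNA-seq. The TE of control was then subtracted from the TE at 5 min within each replicate number. Genes with a mean signal of at least 1 over the 15 libraries in both tissue tables were kept, which were 7103 of the 11531 genes listed. Of the 34 samples of the series, 12 belong to this comparison: 3 RPF and 3 RNA libraries at 5 min, and 3 RPF and 3 RNA libraries of control.

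All mice were of the strain C57BL/6N. Those of the 5 min group were kept singly, handled for 3 min a day over 4 days, left for 148 s in the conditioning chamber, given a foot shock of 2 s and put back in the home cage 30 s later, and the hippocampi were frozen 5 min after conditioning. Control mice are labelled as without stimulus, yet their records carry the same protocol text as those of the conditioned mice. No time or handling of their own is given for them, so how control mice were handled cannot be told. In every group the tissue was lysed with cycloheximide, a drug that stops ribosomes where they stand, and complexes of ribosomes with mRNA were purified on Sephacryl S-400 columns. Nothing in the labels says whether the replicates of a group are separate mice or pools, so the p-values describe the spread among these libraries only, and that spread may be technical. The listed hippocampal markers were present: the dentate granule cell gene Prox1 and the CA1 genes Wfs1 and Fibcd1 had signals above 1 in both groups, and none of the listed CA1, CA3 or dentate markers was at 0 in any of the 12 libraries.

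Ribosomes translate mRNA into protein, and a footprint is the stretch of mRNA that a ribosome covers and shields from nuclease. When footprints change together with RNA, TE stays level. When footprints change alone, or RNA changes without footprints, TE shifts, which is read as a change in how many ribosomes each mRNA copy carries. Formation of long-term memory in the hippocampus is known to need new protein synthesis, and neurons hold many mRNAs under translational repression.

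The 12 libraries held 15928292 to 24750901 RPF reads and 19084404 to 22779768 RNA reads on listed genes. A signal is a whole number of reads divided by 1 number per library whose meaning the sources used here do not give, so signals are compared between libraries for 1 gene and not between genes as amounts. The replicate number went with much of the variation: over 7103 genes, samples of the same number deviated together from their group means, with a correlation across genes between 5 min and control of 0.809 to 0.918 in RPF, 0.663 to 0.85 in RNA and 0.648 to 0.719 in TE. Genes are not independent replicates, so these correlations are descriptions. Fits that treat the number as a block are given beside the results they bear on.

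At 5 min no gene passed the test for TE that leaves the replicate number out. That model also enters RPF and RNA libraries as separate values, without the pairing of RPF and RNA in a sample. By limma with Benjamini-Hochberg adjustment over all 7103 genes, 0 were called (0%, smallest adjusted p = 1), and 50 genes (0.704%) had an unadjusted p under 0.05, 46 of them lower and 4 higher at 5 min. With libraries centred on their median gene the unadjusted p was under 0.05 for 30 lower and 11 higher genes, and the median TE change of all genes was 0.006 in place of -0.01. Footprints alone gave 0 called genes (0%) and RNA alone gave 0 (0%), with 51 and 48 genes at an unadjusted p under 0.05. The changes were small: TE changes had a standard deviation of 0.0746 across genes. The median standard error (SE) of a TE change was 0.119 without the block and 0.0685 with the block within each kind of library. With that block limma gave 397 genes an unadjusted p under 0.05 for TE, 323 lower and 74 higher. On 1 TE value per sample and without a block, limma called 0 genes. The unadjusted p of that fit was under 0.05 for 168 genes, 125 lower and 43 higher. Footprint changes had a standard deviation of 0.0653 across genes and RNA changes one of 0.0538.

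With the replicate number as a block, a small set of mRNAs carried fewer footprints per RNA at 5 min. The block within each kind of library called 1 gene (0.0141%), Cnot7. The block on 1 TE value per sample called 9 genes (0.127%), of which 8 were lower, namely Nrsn1, Cnot7, Mapk6, Ccni, Hdac5, Csnk1g2, Trim37 and Marf1, and 1 was higher, Smpd1. Of these, Cnot7 and Mapk6 were also called by limma's voom on whole reads with the block (2 genes, 0.0282%), and the remaining 7 by no other fit over all 5 groups with every number. The calls depend on the numbers used: without number 1 or without number 3 the same fit called 0 genes (smallest adjusted p 0.0733 and 0.23), and without number 2 it called 5 (0.0704%), all lower: Ccni, Cnot7, Mapk6, Nrsn1 and Snrpb2. A fit of 5 min and control alone with that block, which leaves 2 residual degrees of freedom, called 36 genes (0.507%), 33 lower and 3 higher. These included the 9 genes above and, among genes described further on, Arc, Rps24, Epas1, Epb4.1l1, Ivns1abp, Rc3h1, Map3k10 and Col1a1. For footprints, the block within each kind of library without number 2 called 3 genes (0.0422%, smallest adjusted p of limma 0.0408), of which Nrsn1 and Mapk6 were lower and Hbb-bs, a haemoglobin gene, was higher.

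Nrsn1 encodes neurensin, a membrane protein of vesicles in growing neurites, and showed the lowest TE change of all 7103 genes. Its RPF signal was 2.3, 2.45 and 2.73 at 5 min in numbers 1 to 3, against 2.83, 3.27 and 3.7 in control. Its RNA signal was 18.3, 17.2 and 22.1 at 5 min, against 17.2, 16.7 and 20.5 in control. The 3 footprint values at 5 min all lay below the lowest control value, while the RNA values of the groups overlapped and were slightly higher at 5 min within each number. TE was -2.55, -2.39 and -2.63 at 5 min, against -2.25, -2.05 and -2.19 in control, without overlap. The log2 change was -0.36 (SE 0.18, limma without the block, adjusted p = 1, lower in 3 of 3 numbers), which is a ratio of 0.778, and with the block on 1 TE value per sample the adjusted p of limma was 0.00193 (SE 0.0548). Between 676 and 1129 footprint reads stood behind each value. Over the other times, which share the control samples, the TE change of Nrsn1 was -0.31 at 10 min, -0.09 at 30 min and -0.03 at 4 h.

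**Figure D1:**
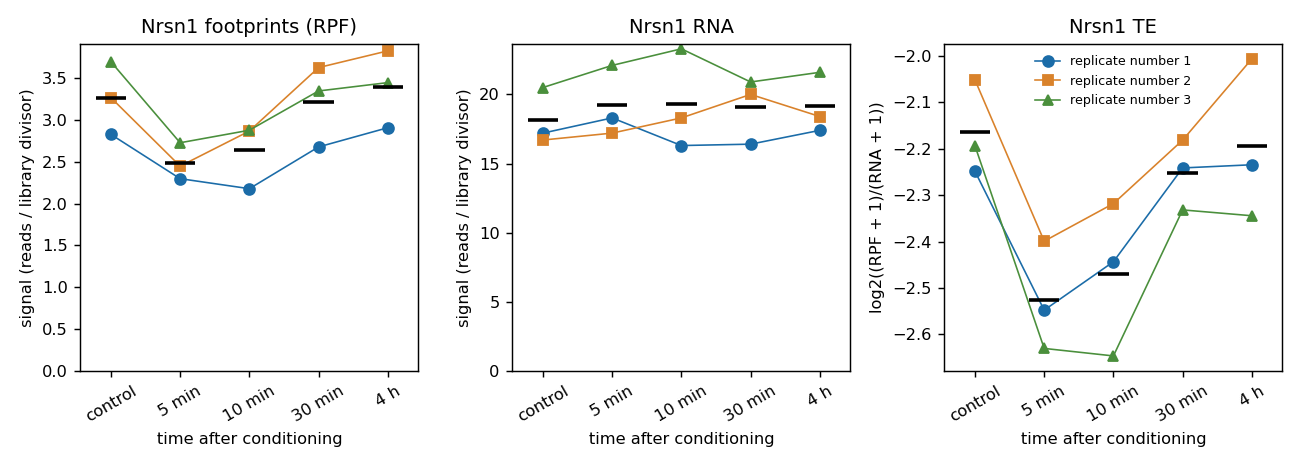
Nrsn1 in each tissue sample by time after conditioning: RPF signal (left), RNA signal (middle) and TE on the log2 scale (right), with 1 coloured line per replicate number and black bars for group means (n = 3). Footprints and TE sit lowest at 5 and 10 min in every number, whereas RNA does not follow. The TE axis does not start at 0.

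Nrsn2, the paralog of Nrsn1, moved otherwise. Its RPF signal was 5.2 ± 0.329 at 5 min and 5.02 ± 0.419 in control (SD, n = 3 each), its RNA signal was 1.16 ± 0.193 and 1.14 ± 0.0677, and its TE change was 0.04. The difference between the paralogs was not tested.

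Cnot7 encodes a deadenylase of the CCR4-NOT complex, which shortens the poly(A) tails of mRNAs. Footprints of Cnot7 had signals of 2.3, 2.66 and 2.42 at 5 min and 2.61, 2.97 and 2.89 in control. RNA signals were 10.3, 10.1 and 11.4 at 5 min and 9.28, 9.06 and 10.0 in control. Footprints were lower and RNA was higher at 5 min in every number, and all RNA values at 5 min lay above all control values. The TE change was -0.29 (SE 0.10 by limma without the block, lower in 3 of 3 numbers). Limma with the block within each kind of library gave Cnot7 an adjusted p of 0.0486. With the block on 1 TE value per sample the adjusted p of limma was 0.00873. Cnot7 was the only one of 11 CCR4-NOT genes called in those fits. The list had a median TE change of -0.06, with 9 members lower and 2 higher.

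Mapk6 encodes an atypical MAP kinase of short half-life. Footprint signals were 1.11, 1.19 and 1.18 at 5 min, below all of the control values of 1.5, 1.37 and 1.59. In RNA it had 4.73, 4.55 and 4.42 at 5 min and 4.38, 4.14 and 4.31 in control, slightly higher within each number. It had the smallest unadjusted p of the model without the block (0.000399, adjusted p = 1 by limma), with a TE change of -0.28 (SE 0.07), and an adjusted p of 0.00873 by limma with the block on 1 TE value per sample. At 10 min, against the same controls, its TE change was -0.28, at 30 min -0.07 and at 4 h -0.08.

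Ccni, Marf1, Csnk1g2 and Trim37 lie outside the rule by which genes were chosen for naming and were named after their values were seen. Ccni, which encodes a cyclin abundant in post-mitotic cells, had RPF signals of 4.68, 5.24 and 5.65 at 5 min against 5.51, 5.67 and 6.66 in control, while its RNA was 26.7, 28.0 and 32.6 against 24.7, 24.8 and 30.7. Within each number footprints were lower and RNA was higher at 5 min, although the ranges of the groups overlapped. Marf1, known in mouse oocytes as a regulator of meiosis and RNA, had 2.7 ± 0.231 RPF at 5 min and 3.03 ± 0.164 in control, with RNA of 21.2 ± 1.55 and 19 ± 1.62 (SD, n = 3 each). Csnk1g2, a casein kinase gene, had 1.97 ± 0.264 RPF at 5 min and 2.38 ± 0.208 in control. Trim37, the gene of a ubiquitin ligase, had 10.6 ± 0.316 RPF at 5 min and 11.6 ± 0.605 in control, and its RNA was 33.7 ± 1.47 and 30.8 ± 1.86. Their TE changes were -0.28 for Ccni, -0.27 for Marf1, -0.25 for Csnk1g2 and -0.24 for Trim37, with adjusted p-values by limma with the block on 1 TE value per sample of 0.00873, 0.0459, 0.0337 and 0.0337 in that order.

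Hdac5 encodes a class of histone deacetylase that shuttles between nucleus and cytoplasm in neurons. Its RPF signal was 3.88, 3.85 and 3.61 at 5 min, below all control values of 4.38, 4.33 and 4.53, and its RNA was 8.0, 7.34 and 7.57 at 5 min and 7.53, 6.76 and 7.14 in control. The TE change was -0.26 (SE 0.08 by limma without the block). With the block on 1 TE value per sample the adjusted p of limma was 0.0337. Of 9 histone deacetylase genes tested, 6 (66.7%) were lower and 3 higher in TE, beside 56.1% of all genes lower. Hdac5 alone was called.

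Smpd1 was the 1 gene called higher. It encodes acid sphingomyelinase, the lysosomal enzyme that makes ceramide from sphingomyelin. In footprints Smpd1 had 17.9, 16.4 and 17.1 at 5 min, above all control values of 15.5, 13.6 and 14.5. RNA signals of Smpd1 were 13.1, 10.7 and 12.3 at 5 min and 13.1, 11.4 and 12.2 in control, so the groups overlapped in RNA and not in footprints. The TE change was 0.25 (SE 0.11 by limma without the block, higher in 3 of 3 numbers). With the block on 1 TE value per sample the adjusted p of limma was 0.0337. The footprint change was 0.22 against an RNA change of -0.03. At the later times its TE change was 0.17, 0.08 and 0.12 against the same controls.

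The naming rule took the 10 genes per direction with the smallest unadjusted p by limma without the block. It chose among genes whose TE did not overlap between the groups and whose 3 differences by number all had 1 sign. Over all genes, 324 (4.56%) were lower and 205 (2.89%) were higher without overlap, and by number 1609 genes (22.7%) were lower and 1053 (14.8%) higher in 3 of 3. In 3 of 3 numbers footprints were lower for 1655 genes (23.3%) and higher for 1501 (21.1%), and RNA was lower for 671 (9.45%) and higher for 1389 (19.6%). Beside Mapk6, Hdac5 and Cnot7, the rule gave the following lower genes, none past the threshold by limma without the block (adjusted p = 1). Of these, Epb4.1l1, Ivns1abp and Rc3h1 were among the 36 called when 5 min and control were fitted alone with the block. Ric8b, a chaperone of G protein alpha subunits, had a TE change of -0.21, and Epb4.1l1, which links membrane proteins to the neuronal cytoskeleton, -0.21. Epb4.1l1 had 12.4 ± 0.345 RPF at 5 min and 13.1 ± 0.229 in control, and its RNA was 27.8 ± 0.192 at 5 min and 25.3 ± 0.523 in control (SD, n = 3 each). Ivns1abp, a kelch-repeat protein gene, had 2.66 ± 0.0535 RPF at 5 min and 2.88 ± 0.0501 in control, with RNA of 4.76 ± 0.0855 at 5 min and 4.22 ± 0.0599 in control, and a TE change of -0.23. Actr6, part of a chromatin remodelling complex, had -0.21, 1110057K04Rik -0.22, Rc3h1, which encodes an RNA-binding protein of mRNA decay, -0.20, and Grb14, an adaptor of the insulin receptor, -0.18. In each of the 10 lower genes the RPF change was negative and the RNA change positive. A TE change is the footprint change minus the RNA change, so choosing genes by TE favours such opposite signs. They are a description of the genes chosen and not a separate result.

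On the higher side the rule gave Epas1, Smpd1, Slc15a4, Amd1, Grk6, Lpcat4, Creb3, Egfl7, Axl and Podxl2, again none past the threshold without the block (limma adjusted p = 1). Epas1 encodes a hypoxia-inducible transcription factor expressed in endothelium and glia. Its RPF signal was 5.65, 5.32 and 5.24 at 5 min against 5.52, 4.97 and 4.38 in control, and its RNA was 5.47, 4.78 and 5.16 against 5.76, 5.94 and 5.77, lower in every number. The TE change of Epas1 was 0.26 (SE 0.11 without the block), and it too was called when 5 min and control were fitted alone with the block. Amd1, which encodes a key decarboxylase of polyamine synthesis, had 6.26 ± 0.416 RPF at 5 min and 5.96 ± 0.273 in control, with RNA of 18.5 ± 0.584 and 20.0 ± 0.415 and a TE change of 0.16. Axl, a receptor tyrosine kinase gene, had 5.56 ± 0.526 RPF at 5 min and 4.73 ± 0.552 in control with RNA of 4.61 ± 0.387 and 4.65 ± 0.421, a TE change of 0.21. The RNA change was negative in all 10, from -0.15 in Epas1 to -0.01 in Axl, a sign that choosing genes by higher TE favours.

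**Figure D2:**
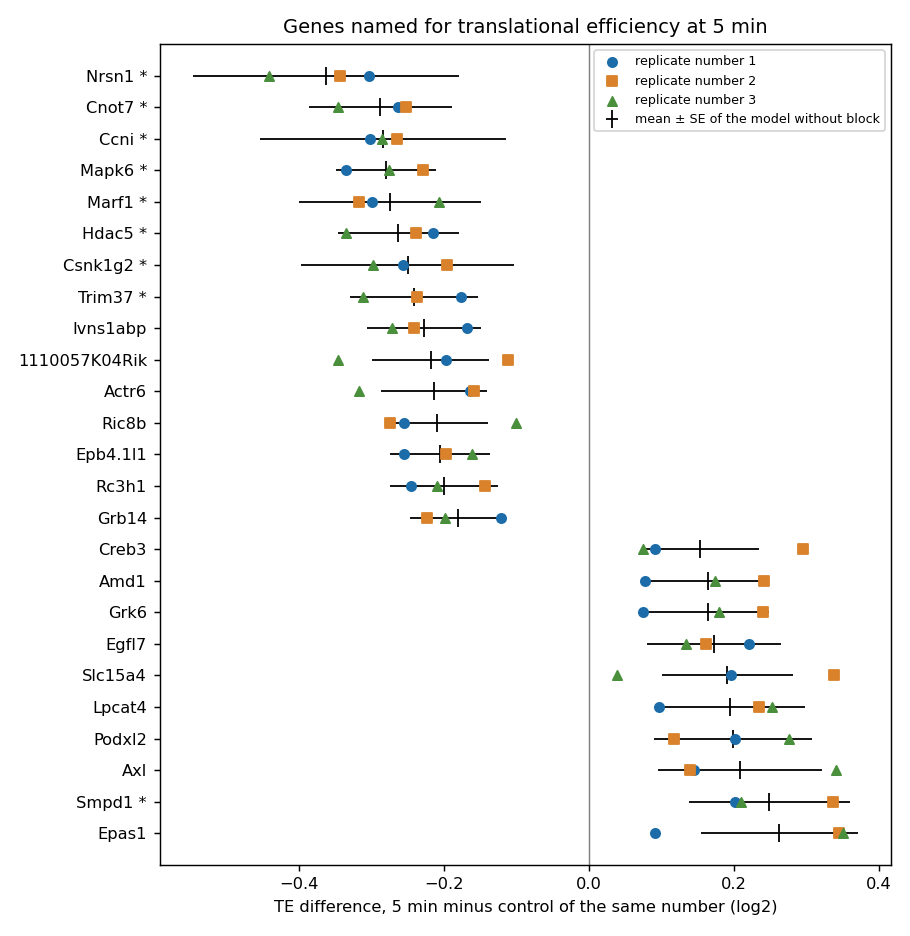
TE differences of 5 min minus control of the same replicate number (log2, horizontal axis) for the genes chosen by the naming rule and those called with the replicate block, marked with an asterisk. Coloured points are the 3 numbers, and the black tick with its bar is the mean change ± SE of limma without the block. The naming rule took only genes whose 3 points lie on 1 side of 0, so that agreement is a condition of the choice. The largest mean change among lower genes (-0.36) is further from 0 than that among higher ones (0.26).

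Few genes differed in footprints alone. Asking for a footprint change of at least 0.2 with 1 sign in all 3 numbers and an RNA change under 0.05 left 5 genes (0.0704%), 1 lower and 4 higher. The lower one was Map3k10, the gene of a mixed-lineage kinase, with 1.31, 1.5 and 1.01 RPF at 5 min against 1.39, 1.94 and 1.62 in control and RNA of 7.05 ± 0.511 and 7.01 ± 0.876. The higher ones were Smpd1, Lrp4, Icam5 and Slc14a1. Icam5, which encodes telencephalin, an adhesion molecule of forebrain dendrites, had 54.1, 47.2 and 49.3 RPF at 5 min, all above the 45.5, 42.3 and 41.7 of control, with RNA of 27.7 ± 3.93 and 27.1 ± 3.48. Lrp4, an agrin receptor gene, had 11.9, 6.98 and 7.82 RPF at 5 min against 10.1, 5.66 and 6.69 in control, higher within each number though the ranges overlapped. Slc14a1, a urea transporter gene, had 3.48, 3.0 and 3.2 RPF at 5 min, all above the 2.88, 2.3 and 2.86 of control. Map3k10 was called for TE when 5 min and control were fitted alone with the block. None of the 5 was called for footprints by limma with the block within each kind of library (adjusted p of 0.316 for Smpd1).

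The reverse, RNA without footprints, gave 1 gene (0.0141%) at the same limits: Col1a1, a fibrillar collagen gene. Its RNA signal was 1.33, 0.828 and 1.85 at 5 min and 1.26, 0.738 and 1.01 in control, and its RPF signal was 3.69 ± 0.895 and 3.79 ± 1.24. The RNA change of 0.21 came mostly from number 3, and Col1a1 was called for TE when 5 min and control were fitted alone with the block. Over all 7103 genes the footprint and RNA changes had a correlation of 0.226 across genes, and 0.379, 0.364 and 0.0701 within numbers 1, 2 and 3.

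**Figure D3:**
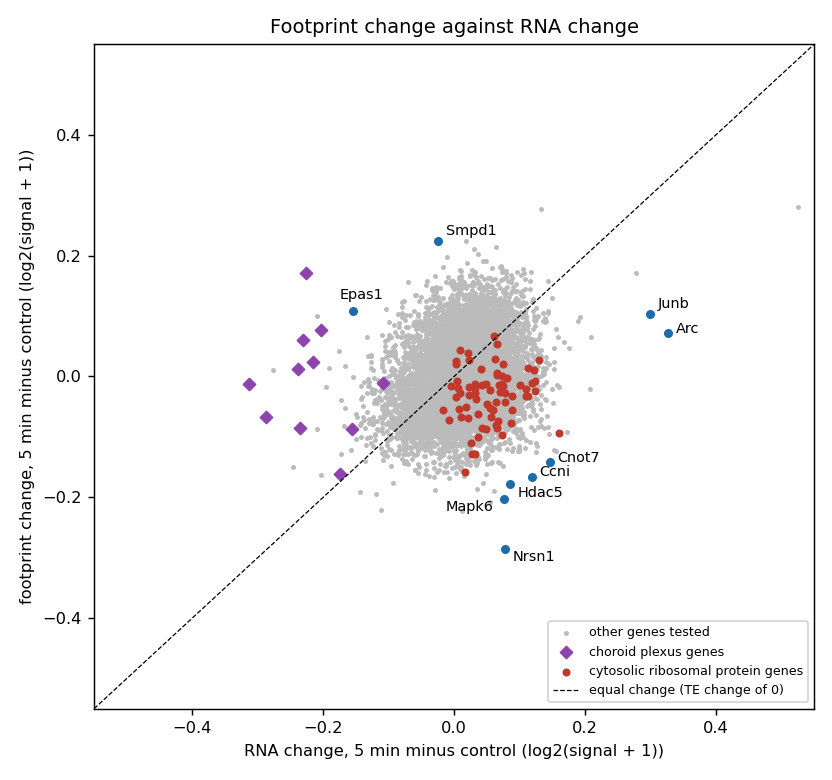
Footprint change (vertical axis) against RNA change (horizontal axis) at 5 min minus control for the 7103 genes, both as the mean difference of log2(signal + 1) over 3 replicates. The dashed line marks equal change. Arc and Junb lie far to the right of the line, Nrsn1 and the other named lower genes below it, and most ribosomal protein genes (red) just below it.

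Immediate-early genes are transcribed within minutes of neuronal activity. At 5 min Arc and Junb had a larger RNA change than footprint change, with RNA values that did not overlap between the groups. Arc encodes a postsynaptic protein whose mRNA travels into dendrites. Its RNA signal was 4.34, 5.16 and 4.73 at 5 min, all above the 3.7, 3.19 and 3.86 of control. Its RPF signal was 4.79, 5.66 and 3.97 at 5 min and 5.24, 4.44 and 3.85 in control, so the footprint values overlapped. TE was 0.12, 0.11 and -0.20 at 5 min against 0.41, 0.38 and -0.001 in control, lower in 3 of 3 numbers by 0.29, 0.27 and 0.20 in size. The TE change of -0.25 (SE 0.15) was not called by limma (adjusted p = 1 without the block and 0.13 with the block on 1 TE value per sample). It was called, with 36 genes in all, only when 5 min and control were fitted alone with the block, a fit with 2 residual degrees of freedom. Against the same controls the TE change of Arc was 0.08 at 10 min, 0.34 at 30 min and -0.05 at 4 h.

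Junb, a subunit of the AP-1 transcription factor, behaved alike in size. Its RNA signal was 2.09, 2.92 and 2.2 at 5 min, all above the 1.7, 1.89 and 1.67 of control, and its RPF signal was 2.5, 3.37 and 2.58 against 2.29, 2.94 and 2.4, higher within each number. The RNA change was 0.30, the footprint change 0.10 and the TE change -0.19 (SE 0.13, limma adjusted p = 1), with TE values that did not overlap. Egr1, a zinc finger transcription factor, had 7.41 ± 0.235 RPF at 5 min and 6.91 ± 0.651 in control, RNA of 1.57 ± 0.224 and 1.33 ± 0.0962, and a TE change of -0.05. Of the 32 immediate-early genes listed, 12 passed the filter on signal, and 11 of these were lower in TE, against 56.1% of all genes. Their median TE change was -0.05, and their medians by number were -0.09, -0.01 and -0.12.

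Several immediate-early genes were below the filter and are given by level alone. Npas4, an activity-dependent transcription factor, had an RNA signal of 0.395 ± 0.207 at 5 min and 0.132 ± 0.0442 in control (SD, n = 3 each), and an RPF signal of 0.229 ± 0.0659 and 0.176 ± 0.0512. Fos had 0.559 ± 0.11 RNA at 5 min and 0.344 ± 0.0177 in control, and 0.418 ± 0.0684 and 0.398 ± 0.0405 RPF. Btg2, an antiproliferative gene induced by activity, had 1.76 ± 0.445 RNA at 5 min and 1.43 ± 0.059 in control. In these 3 genes the mean RNA signal was higher at 5 min by a larger ratio than the mean RPF signal. Fosb and Nr4a1 had 0.162 ± 0.0534 and 0.854 ± 0.0809 RNA at 5 min, against 0.13 ± 0.0333 and 0.858 ± 0.0715 in control.

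Genes for the proteins of the cytosolic ribosome were lower in TE as a list, by small amounts. Of 84 members listed, 72 passed the filter, and 66 of these (91.7%) were lower at 5 min, against 56.1% of all genes. In 46 (63.9%) TE was lower in 3 of 3 numbers, against 22.7% of all genes, and in 0 was it higher in 3 of 3. In 11 members (15.3%), among them Rps20, Rpsa, Rpl7a and Rps6, the groups did not overlap, against 4.56% of all genes. None was called by limma without the block or with the block on 1 TE value per sample, and none had an unadjusted p under 0.05 without the block. The median TE change was -0.09, made of a median footprint change of -0.03 and a median RNA change of 0.06. Reads of near-identical ribosomal protein copies could have been split or shared in the authors' counting, which the sources used here do not describe, so single members are uncertain.

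The size of that shift differed between numbers. The median TE of the 72 genes was -1.01, -0.93 and -0.94 at 5 min in numbers 1 to 3, against -0.98, -0.82 and -0.84 in control, and their median TE differences were -0.05, -0.10 and -0.11. In number 1 the shift lay in footprints (median -0.06, RNA -0.02), and in numbers 2 and 3 it lay in RNA (medians 0.08 and 0.10, footprints -0.01 and -0.01). Without control number 3 the median of the large subunit genes was -0.05, and over all 6 settings that leave out 1 sample it ran from -0.12 to -0.05, and that of the small subunit genes from -0.12 to -0.07. With libraries centred on their median gene the medians were -0.07 and -0.07. The list had a median TE change of -0.028 at 10 min, 0.025 at 30 min and -0.095 at 4 h against the same controls.

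Rps24, a small subunit gene, had the lowest TE change of the list. Its RNA signal was 25.6 ± 1.86 at 5 min and 22.7 ± 0.93 in control, its RPF signal 6.79 ± 1.26 and 7.33 ± 1.5 (SD, n = 3 each), and its TE was lower by 0.19, 0.19 and 0.38 in size in numbers 1 to 3 (change -0.25, SE 0.19, limma adjusted p = 1, and 0.0835 with the block on 1 TE value per sample). Rps24 was called when 5 min and control were fitted alone with the block, the 1 ribosomal protein gene among those 36. Rplp0, which builds the ribosomal stalk, had 4.1 ± 0.105 RPF at 5 min and 4.69 ± 0.151 in control, with RNA of 16.5 ± 1.52 and 16.3 ± 1.09, a TE change of -0.18. Rps20 had 4.5 ± 0.653 RPF at 5 min and 4.79 ± 0.475 in control, with RNA of 17.5 ± 1.59 and 16.4 ± 0.433, a TE change of -0.16. At the other end Rpl37a had a TE change of 0.03 and Rpl36 one of 0.02.

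Many ribosomal protein mRNAs begin with a C and an unbroken run of pyrimidines, the feature known in mammals to place them under control of the mTOR pathway. The start windows of 8 of these genes are shown to let that feature be seen. They were picked for the lowest TE changes in each subunit list, among genes with a run and a single usable window. Set beside them are 4 genes called for TE without such a run. Each window covers 10 bases before to 20 bases from the start that RefSeq annotates on GRCm38.p6, read 5′ to 3′ on the transcript strand, with any run of a C followed by at least 6 pyrimidines in capitals.
Rpl14 (chr9:120571507-120571536, plus strand): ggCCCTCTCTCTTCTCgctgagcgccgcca
Rpl7a (chr2:26910797-26910826, plus strand): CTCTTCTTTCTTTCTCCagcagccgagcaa
Rpl35 (chr2:39005112-39005141, minus strand): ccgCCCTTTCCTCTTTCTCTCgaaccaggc
Rpl38 (chr11:114668570-114668599, plus strand): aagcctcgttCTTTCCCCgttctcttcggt
Rps12 (chr10:23787190-23787219, minus strand): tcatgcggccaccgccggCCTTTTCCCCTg
Rps6 (chr4:86857348-86857377, minus strand): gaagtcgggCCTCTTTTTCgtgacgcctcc
Rps9 (chr7:3704031-3704060, plus strand): cttgtCTCTCTTTgtctcgggcctgagttc
Rps10 (chr17:27635225-27635254, minus strand): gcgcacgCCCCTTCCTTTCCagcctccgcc
Nrsn1 (chr13:25269977-25270006, minus strand): gccgctggctgtcaatcacgtgcagctgag
Ccni (chr5:93206476-93206505, minus strand): ggccgaaatcagtccgcgagggcggggcta
Hdac5 (chr11:102230153-102230182, minus strand): ctcggggtcgggtcacgtgacgagagtgac
Smpd1 (chr7:105554350-105554379, plus strand): ttgctgggccataagaggaacaggaagggg

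The run was searched on the transcript strand only and may begin anywhere in the window. It was found in 25 of the 52 ribosomal protein genes with a RefSeq window (48.1%), in 17.8% of the 5399 tested genes with a window and in 13.5% of all 32851 RefSeq windows. The presence of a run went little with the TE change. Ribosomal protein genes with a run had a median TE change of -0.10 (25 genes) and those without one -0.09 (27 genes). Among other genes the medians were -0.02 with a run (936 genes) and -0.01 without (4411 genes). The TE changes of the genes shown with a run ranged from -0.17 in Rpl14 to -0.04 in Rps10. Nrsn1, Ccni and Hdac5 have no run in this window. Both sets shown were chosen by their TE changes, so comparing them says nothing about the run. A run in the window is a match of letters and not a site shown to act.

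Other genes of the translation machinery showed small TE differences. Of 18 tested elongation and termination genes, 16 were lower and 2 higher in TE, with a median of -0.07 (-0.09 to -0.04 with 1 sample left out) and medians by number of -0.07, -0.02 and -0.13. Pabpc1, which encodes the poly(A)-binding protein, had 2.36 ± 0.368 RPF at 5 min and 2.62 ± 0.344 in control, with RNA of 5.18 ± 0.328 and 5.1 ± 0.349 and TE values that did not overlap (change -0.12). Eef2, the elongation factor that moves the ribosome along, had 46.8 ± 5.6 RPF and 59.4 ± 1.57 RNA at 5 min, against 46.6 ± 5.29 and 58.8 ± 0.819 in control, a TE change of -0.01. Of 39 initiation factor genes, 28 were lower and 11 higher (median -0.04, and -0.05 to -0.02 with 1 sample left out), and Eif5 had the lowest change of -0.17 with an unadjusted p of 0.0335 by limma (adjusted p = 1). Of 27 mTOR pathway genes 16 (59.3%) were lower, beside 56.1% of all genes, and the median of -0.03 turned its sign when 1 sample was left out (-0.05 to 0.03). Of 15 genes of the eIF2 alpha kinase and stress response 7 were lower and 8 higher (median 0). Atf4, the stress transcription factor of that response, had a TE change of 0.05, with 2.66 ± 0.34 RPF at 5 min and 2.42 ± 0.179 in control.

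Regulators that repress neuronal mRNAs were lower in TE in 19 of 25 members (median -0.05, by number -0.09, -0.05 and -0.06, and -0.07 to -0.02 with 1 sample left out). Syncrip, an RNA-binding protein of neuronal transport granules, had 3.08 ± 0.237 RPF at 5 min and 3.39 ± 0.296 in control (TE change -0.17), and Stau2, which carries mRNAs into dendrites, 3.11 ± 0.251 and 3.31 ± 0.297 (-0.15). Proteasome subunit genes, which degrade ubiquitin-tagged proteins, were lower in 35 of 39 members (median -0.05). Their medians by number were 0.01, -0.05 and -0.12, and without single samples the median ran from -0.10 to -0.01. Their median footprint change was -0.07 and their median RNA change -0.01, while in number 3 the footprint median was -0.05 and the RNA median 0.07. Chaperone genes had a median of -0.05 (27 of 40 lower, 67.5%), which ran from -0.06 to -0.02 with 1 sample left out. Over all genes 56.1% were lower.

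Synaptic lists differed in direction by class, and those differences were not tested. The 6 metabotropic glutamate receptor genes tested were all higher in TE, against 43.9% of all genes (median 0.06, 3 of 6 higher in 3 of 3 numbers against 14.8% of all genes), and without single samples the median ran from 0.02 to 0.08. Grm2, an inhibitory receptor of presynaptic endings, had 7.03 ± 1.05 RPF at 5 min and 6.57 ± 0.677 in control with RNA of 1.47 ± 0.23 and 1.56 ± 0.203, a TE change of 0.13. NMDA receptor genes had a median of 0.06 (5 of 6 higher), which was 0.02 without control number 2 or without 5 min number 3, with Grin1, the obligatory subunit, at 70.0 ± 14.1 RPF at 5 min and 63.0 ± 13.2 in control. Inhibitory synapse genes had a median of 0.03 (13 of 20 higher), with Nlgn2, an adhesion molecule of inhibitory synapses, at 12.1 ± 0.261 RPF at 5 min and 11 ± 0.32 in control (TE change 0.16). Their median was -0.01 without 5 min number 3 and -0.004 without control number 2. Postsynaptic density genes were lower in 19 of 26 members (median -0.05, and -0.004 without 5 min number 3), with Dlgap3, a scaffold protein gene, at 6.69 ± 0.417 RNA at 5 min and 6.01 ± 0.17 in control (TE change -0.20). Camk2a, the abundant synaptic kinase with dendritic mRNA, had a TE change of 0.02, and Bdnf, a neurotrophin gene, one of -0.02. None of the genes named in the last 3 paragraphs was called by limma with the block on 1 TE value per sample.

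Cell type lists had small TE medians of both signs, and pyramidal cell lists did not share one. In bulk tissue, fewer cells of a type and less RNA per cell cannot be told apart. Of 8 CA1 genes 6 were higher (median 0.07, by number 0.03, 0.12 and 0.15, and 0.06 to 0.11 with 1 sample left out). General pyramidal cell genes were lower in 6 of 9 members (66.7%, median -0.06, and -0.09 to -0.01 with 1 sample left out). CA3 genes were lower in 4 of 7 (57.1%, median -0.01, and 0.004 with libraries centred on their median gene). Over all genes 56.1% were lower, so neither share stands far from that of all genes. Wfs1, an endoplasmic reticulum protein gene that marks CA1, had 25.6 ± 2.45 RPF at 5 min and 23 ± 3.21 in control with RNA of 4.52 ± 0.45 and 4.54 ± 0.657, a TE change of 0.16 without overlap. Of 9 dentate granule genes 8 were lower (median -0.08, and -0.03 without control number 2), and Prox1, the transcription factor that defines these cells, had 3.05 ± 0.183 RPF at 5 min and 3.25 ± 0.208 in control with RNA of 3.53 ± 0.342 and 3.26 ± 0.17, a TE change of -0.16. Astrocyte genes were higher in 18 of 23 members (median 0.03), against 43.9% of all genes. In 12 members (52.2%) TE was higher in 3 of 3 numbers, against 14.8% of all genes. Microglial genes were higher in 12 of 17 members (median 0.04), and endothelial and pericyte genes in 10 of 10 (median 0.05). With 1 sample left out these medians ran from 0.02 to 0.06 for astrocytes, 0.01 to 0.06 for microglia and 0.02 to 0.11 for endothelium and pericytes. No member of these lists was called without the block or with either block over all 5 groups.

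**Figure D4:**
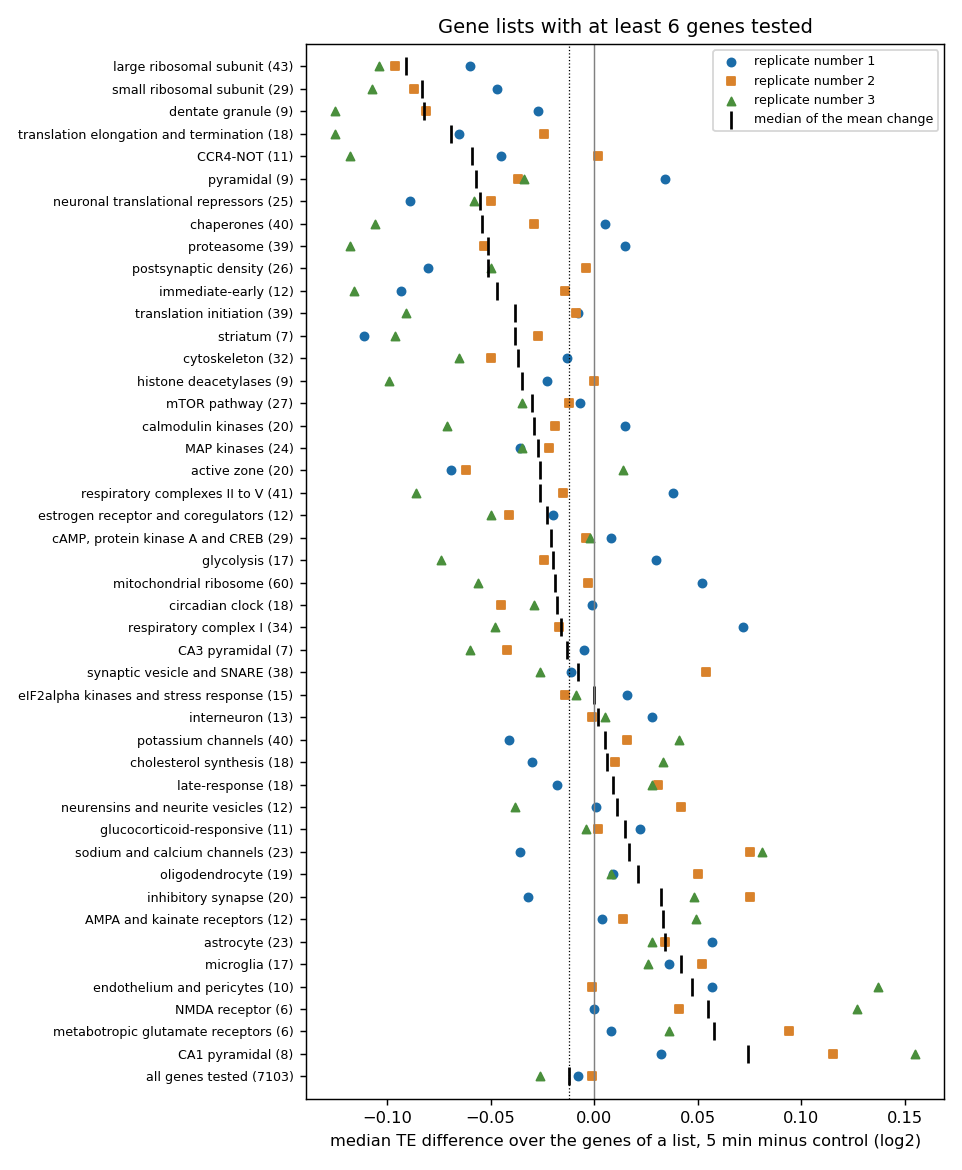
Median TE difference, 5 min minus control (log2, horizontal axis), over the tested genes of each list with at least 6 genes tested, by replicate number (coloured points) and as the median of the mean change (black ticks), with the number of genes in brackets. The dotted line is the median of all 7103 genes. Both ribosomal subunits lie left of it in all 3 numbers. So do several other lists, among them elongation and termination, neuronal translational repressors, dentate granule and cytoskeleton genes. Many of the remaining lists spread to both sides. The choroid plexus list is left out because its number 3 lies off this scale.

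Choroid plexus, the secretory epithelium next to the hippocampus, varied between samples by more than the differences above. The summed RPF signal of its 18 listed markers was 1570, 1260 and 508 at 5 min in numbers 1 to 3, against 2140, 1940 and 188 in control, and the summed RNA signal was 589, 467 and 97 at 5 min against 806, 717 and 75.1 in control. Ttr, the transthyretin gene, had 1080, 973 and 346 RPF at 5 min against 1530, 1550 and 108 in control, and its RNA was 388, 350 and 58 against 555, 549 and 41.3. In number 3 the 5 min library thus stood further above control in RPF than in RNA, and the median TE difference of the 11 tested markers was -0.02, 0.05 and 0.77 in numbers 1 to 3. No marker was at 0 in any of the 12 libraries, and whether unequal choroid plexus content bears on the TE of other genes was not tested. Markers of striatum summed to 27.6 to 29.9 RPF at 5 min and 27.7 to 30.6 in control, and to 29.1 to 29.8 RNA against 28.2 to 28.9. Those of thalamus summed to 15 to 16.2 RPF at 5 min and 16.5 to 17.4 in control. In RNA the thalamus sums overlapped, with 12.5 to 14.9 at 5 min and 12.7 to 15 in control.

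The TE change also went with the TE level of a gene at other times. Genes were put into 4 bins of equal size by their mean TE in the 10 min, 30 min and 4 h samples, which take no part in the comparison of 5 min with control. From the lowest to the highest bin the median TE change at 5 min was -0.04, -0.02, -0.01 and 0.02, and the share of genes lower was 71.9%, 59.9%, 52.5% and 40%. The order held in each replicate number, with -0.04, -0.03 and -0.05 in the lowest bin and 0.02, 0.03 and 0.01 in the highest. It lay more in RNA (medians of 0.04 in the lowest and -0.002 in the highest bin) than in footprints (-0.01 and 0.01). By RNA signal in place of TE the bins had median TE changes of -0.002, -0.01, -0.02 and -0.02. The median RNA change climbed over these bins too, with -0.006, 0.006, 0.014 and 0.031. Whether the RNA change goes with TE level or with RNA level was not tested.

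Ribosomal protein genes sat mostly at the low end of that order: 49 of the 72 lay in the lowest bin and 3 in the highest. Within the lowest bin their median TE change was -0.10, against -0.04 for the 1727 other genes there, of which 71.3% were lower. In the second bin the medians were -0.06 for 15 ribosomal protein genes and -0.02 for the others. Nrsn1, Ccni, Marf1 and Rc3h1 had a mean TE in control of -2.16, -2.00, -2.31 and -1.81, in that order. These lie below the upper bound of the lowest bin (-0.44), which was set on the other times and not on control. Not all named lower genes had a low TE: Actr6 and 1110057K04Rik had 0.206 and 0.256 in control, above that bound.

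**Figure D5:**
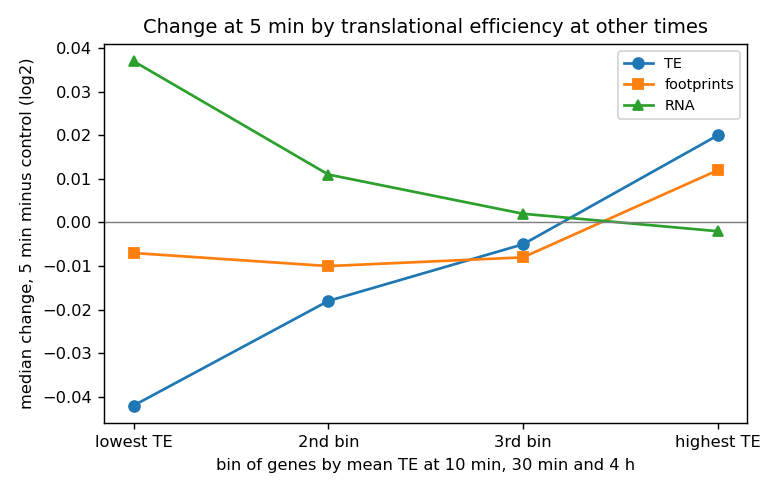
Median change at 5 min minus control (log2, vertical axis) of TE, footprints and RNA, for 4 bins of the 7103 genes by their mean TE at 10 min, 30 min and 4 h (horizontal axis, lowest to highest). TE changes climb from -0.04 to 0.02 while RNA changes decline from 0.04 to -0.002.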

How the data were processed

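CASAVA 1.8.2, Bowtie 1.1.1 and the genome build mm9 are listed, without roles, per the submitters' processing notes. The deposited signal is not named in the file headers. Each signal value was a whole number of reads, to within 0.001, after multiplication by 1 divisor per library, and the sources used here do not say whether gene length or strand entered the counting. The deposited log2 columns and mean columns, per the file headers comparisons and averages by the authors, were not used.

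The signal was tested with limma 3.58.1 in R 4.3.3 on log2(signal + 1): 1 model of 30 libraries (5 groups, 3 replicates, RPF and RNA), with TE as the interaction, a trended spread, no block, 2-sided tests, Benjamini-Hochberg adjustment and a threshold of 0.05. Changes on this scale understate those of low genes. The planned count models were not run, since the deposited unit is not counts, and voom on whole reads was added after seeing the data. The labels do not say what a replicate number shares. The numbers were taken as pairs because every deviation correlation between 5 min and control was over 0.1 (lowest 0.648 in TE).

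Genes were named by 4 rules: the 10 per direction described in the text, genes with a footprint change of at least 0.2 and an RNA change under 0.05 or the reverse, a set of learning-related genes, and the ends of 49 gene lists. Members and lists were chosen with earlier results of these data known. No set test was made. Start windows came from RefSeq, matched by symbol (5399 of 7103 genes). The model was tested on simulated data whose added log2 footprint changes were larger than the largest TE change here. That test does not show how the model does with changes of the size found.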

Additional observations from a re-analysis of the deposited data

How the results depend on the processing

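With the replicate number as a block, limma called 1 gene for TE, and 9 with the block on 1 TE value per sample, where no block gave 0. Chosen after seeing the data, voom with the block gave 2, control and 5 min alone with the block on 1 TE value per sample 36 (33 lower, 3 higher), and that block without number 2 gave 5. Of all 217 named genes 1, 9, 2, 18 and 4 were called in these fits, in that order. Footprints gave 3 calls (Hbb-bs, Mapk6 and Nrsn1) with the block without number 2. Other pseudocounts, filters, centring, voom without the block, and each sample left out without the block gave 0. The cause of these differences was not tested. For the 25 genes of the naming rule or called with the block, each recomputed under every alternative, no TE change turned its sign, and 29 values passed the threshold only there. The naming rule asked for TE values without overlap, so leaving out samples could not turn the sign of its genes. The remaining genes were chosen by their calls, so the kept signs are no separate result. Leaving out 1 sample turned the sign of 3 to 14 of 49 list medians. Centring on the median gene moved the median TE change of all genes from -0.01 to 0.01. The alternatives with TMM factors and the 2 count models were not run. With 3 samples a group, an exact permutation test of 1 gene cannot go below 0.1.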
